A study of Mus musculus with 6 samples.

Results

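The centromere, kinetochore and spindle checkpoint genes examined here are 37 named genes out of the 23366 gene symbols in the deposited count table, and all 37 were found in it by symbol. They encode the histone that marks the centromere, the protein layers that join it to spindle microtubules, the checkpoint that delays anaphase, and the kinase complex that corrects faulty attachments. RNA was sequenced from CD4+GFP+ regulatory T (Treg) cells sorted from the liver (n = 3 libraries) and the spleen (n = 3 libraries) of Foxp3GFP knock-in mice aged 12 days. Both groups carry the same knock-in, in which green fluorescent protein reports the expression of Foxp3, the lineage-defining factor of Treg cells. No other genotype, treatment or age was included. The labels do not say whether a library came from 1 animal or from pooled animals. Sex-linked transcripts, given below, point to more than 1 animal in liver 3 and in spleen 3. The p-values below therefore speak only to the spread among these libraries, and how much of it is technical is not known. The comparison asks how Treg cells of the neonatal liver differ from those of the spleen. In sorted bulk RNA, fewer dividing cells and less transcript per dividing cell cannot be told apart.

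Each chromosome is held by its centromere, where nucleosomes carry Cenpa in place of ordinary histone H3 and a constitutive network of further Cenp proteins is built on them. During mitosis the outer kinetochore assembles on this network and binds microtubules, while Bub and Mad proteins at unattached kinetochores hold back the anaphase-promoting complex. Many of these genes are transcribed mainly in G2 phase and mitosis, so their transcripts are abundant in dividing lymphocytes and scarce in resting ones.

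Levels are given as CPM, counts scaled to a common library total with TMM normalization, and differences as log2 fold changes of liver minus spleen with their standard error (SE). A gene is called where edgeR's quasi-likelihood test, fitted over all 11716 genes that passed the low-count filter, gave a Benjamini-Hochberg adjusted p under 0.05. All 37 genes passed the filter.

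Depth bears on the low-abundance genes. Counts in genes were between 8437055 and 11408960 in 5 libraries and 1199410 in spleen 1, where 3 counts amount to 2.58 CPM. Spleen 1 held between 3 and 126 counts for each of the 37 genes and fewer than 10 counts for 11 of them, while the other libraries held between 13 and 2102. The log2 CPM values of spleen 1 correlated with those of the other spleen libraries at a Pearson's r of 0.943 and 0.942. Between those r was 0.985, where r runs over genes that are not independent. Lower depth alone adds counting noise to such values. No correlation at equal depth was computed, so a difference in profile beyond depth was not tested. Defining transcripts of the sorted cells were abundant in both tissues, with Foxp3 at 1266 ± 58.4 and 1160 ± 57.7 CPM (SD, n = 3) in liver and spleen and Cd4 at 662 ± 28.5 and 649.6 ± 64.3 CPM. Other Treg markers differed: Il2ra was lower in liver (-0.60 ± 0.09, edgeR adjusted p = 0.000171), Ctla4 higher (0.89 ± 0.12, edgeR adjusted p = 5.00e-05) and Ikzf2 higher (0.35 ± 0.10, edgeR adjusted p = 0.0241), the last named after its values were seen, while Cd3e did not pass (0.04 ± 0.09). Sex-linked transcripts matched between libraries of the same number, although these numbers are only accession order. Liver 1 and spleen 1 held 9545 and 1509 counts of Xist and 0 of Ddx3y. Liver 2 and spleen 2 held 1 and 2 counts of Xist and 1279 and 1352 of Ddx3y. Liver 3 and spleen 3 held both, with 4987 and 3826 counts of Xist and 575 and 899 of Ddx3y. The libraries of a tissue thus differed in these transcripts and were not repeats of 1 RNA sample. Liver 3 and spleen 3 thus held transcripts typical of both sexes, which points to RNA of more than 1 animal in each. The number of animals behind each library is not given.

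Of the 37 genes, 28 were higher in liver, 0 were lower and 9 did not pass the test. Over all genes tested, 9.28% were called higher in liver and 6.90% lower. The median log2 fold change of the 37 genes was 1.23, against -0.01 for all genes tested, and 22 of them were called with a difference of at least 1, as were 3.65% of all genes. For 28 of the 37 the liver libraries lay above every spleen library, which held for 17.7% of all genes tested. These were 26 of the called genes plus Zw10 and Zwilch, which did not pass the test. Cenpn and Nsl1 were called although spleen 1 lay among their liver libraries. Summed over the 37 genes, the liver libraries held 1423, 1493 and 1647 CPM and the spleen libraries 742, 690 and 714 CPM, a ratio of means of 2.13. Without spleen 1, 29 of the 37 genes were higher in liver and the median was 1.22. With all libraries thinned to the depth of spleen 1, 31 of the 37 genes passed the filter and 19 were higher. With these sex-linked classes as a block, which pairs same-numbered libraries and was added after seeing the data, 28 were higher and 0 lower; Cenpn lost its call and Zw10 gained one.

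Sequence near the transcription starts of the 37 genes was also examined. Shares over wider sets of genes are given beside theirs, but none was computed for other cell division genes alone. Whether the motifs bear on the difference between tissues was not tested. RefSeq windows (GRCm38.p6, 250 bases before to 50 after each start) were available for 31 of the 37 genes, the others being Aurkb, Incenp, Nsl1, Ska1, Spc24 and Zwilch. The search was for the cell cycle homology region core TTTGAA, an element bound by the DREAM and MuvB complexes, on both strands. It occurred in the windows of 15 of 31 genes (48.4%), against 20.2% of all genes in the RefSeq table and 14.1% of the tested genes matched to it. From base -50 to the end of the window it occurred in 13 of 31 (41.9%), against 5.72% of all genes and 3.73% of the matched tested genes. The sites of 12 of these genes are printed as 30 bases read 5′ to 3′ on the strand that spells TTTGAA, with the element in capitals, so that its surroundings can be compared between genes.
Cenpf: ggcggcggcggcgggcagTTTGAAtcgctc
Ttk: cccctctccggaaacacgTTTGAAatttcc
Ska3: gaacgaacgcgctacacaTTTGAAtcctgc
Bub1b: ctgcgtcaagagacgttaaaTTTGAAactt
Casc5: atcactagggcggttagaTTTGAAtacttc
Ndc80: gtcaacccaaggcggTTTGAAttttaaagt
Spc25: taagcaggcggtggagagTTTGAAattgaa
Cenpa: gggaggggcgggtgatttTTTGAActgctg
Cenpw: acaccgccgagtggtcgaTTTGAAttggcc
Cenpn: ggttcccgccgaggtgctTTTGAAgccgcc
Bub3: ggcctatcattggctgatTTTGAAcgccaa
Oip5: cgccatatttcTTTGAAgcgcgcgcctctt
In Cenpf the element began at base 3, counted from 1 at the start (chr1:189688073-189688102, minus strand), in Ttk at base 8, read on the other strand (chr9:83834690-83834719, minus strand), and in Ska3 at base -14 (chr14:57826154-57826183, plus strand). Bub3 and Oip5 also hold it, at bases -43 and 34, and had log2 fold changes of 0.34 and 0.30. Bub3 has a further RefSeq start, counted from which the same site begins at base -167. A gene was counted where the element lay in the bounds for any of its starts. The 15 genes with the element anywhere in the window had a median log2 fold change of 1.26, with 13 of them called, and the 16 without it a median of 0.95, with 10 called. The other spelling of the core, TTCGAA, occurred in 4 of 31 genes (12.9%), against 1.80% of all genes and 2.52% of the matched tested genes. It was found in Bub1b, which also holds TTTGAA, and in Bub1, Cenpm and Sgol1, which count among the 16 without TTTGAA. Those 16 are thus not all without the core in either spelling.

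The CCAAT box, the element bound by NF-Y, occurred in 21 of 31 genes (67.7%), against 41.1% of all genes and 43.3% of matched tested genes. An E2F-type site, TTGGCGC or TTCCCGC, occurred in 9 of 31 (29.0%), against 7.79% and 14.6%. Where TTGGCGC follows a CCAAT box read in reverse, the motifs can overlap. The 140 bases just before the start are shown for the called genes Cenpf, Ttk and Cenpa and for Cenpq, which had a log2 fold change of -0.08, with each CCAAT box on either strand in capitals.
Cenpf: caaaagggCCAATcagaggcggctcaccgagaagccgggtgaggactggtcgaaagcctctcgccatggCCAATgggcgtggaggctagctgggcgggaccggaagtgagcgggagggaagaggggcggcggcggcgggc
Ttk: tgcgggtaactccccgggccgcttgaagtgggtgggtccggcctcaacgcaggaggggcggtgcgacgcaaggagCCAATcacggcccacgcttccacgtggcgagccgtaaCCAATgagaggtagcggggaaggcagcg
Cenpa: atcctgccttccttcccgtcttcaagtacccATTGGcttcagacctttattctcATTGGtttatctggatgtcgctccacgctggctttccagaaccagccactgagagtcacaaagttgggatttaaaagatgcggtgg
Cenpq: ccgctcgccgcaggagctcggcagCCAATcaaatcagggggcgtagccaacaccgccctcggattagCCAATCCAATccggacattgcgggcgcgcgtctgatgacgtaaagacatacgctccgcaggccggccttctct
The stretches lie at chr1:189688087-189688226, minus strand, at chr9:83834549-83834688, plus strand, at chr5:30666746-30666885, plus strand, and at chr17:40934575-40934714, minus strand. All 4 hold at least 2 boxes, and Cenpq, at the bottom of the fold changes, holds 3. The 21 genes with a box had a median log2 fold change of 1.26 and the 10 without a median of 1.09. A match describes the letters of a window and is not evidence of binding.

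Cenpa, the centromeric histone H3 variant, was among the most abundant of the 37 genes per length. It was at 131, 120 and 152 CPM in liver and 55.9, 61.9 and 58.5 CPM in spleen. No liver library came near the spleen range, with a log2 fold change of 1.18 ± 0.11 (edgeR adjusted p = 1.37e-06). Oip5, which helps prepare centromeres for new Cenpa, was scarce in every library, at 3.49, 3.30 and 3.43 CPM in liver and 4.30, 2.49 and 2.56 CPM in spleen. The tissues overlapped through spleen 1, which held 5 counts, and the test did not pass (0.30 ± 0.43, edgeR adjusted p = 0.704). In GENCODE M21, 15.9% of the Oip5 exon bases lie opposite exons of Nusap1, and without a stated strand setting reads there cannot be assigned with certainty.

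Of the 10 genes of the constitutive centromere-associated network, 5 passed the test, all higher in liver, and 5 did not, with a median log2 fold change of 0.93. Cenpm, a partner of Cenpi in the network, was at 20.3, 17.4 and 18.5 CPM in liver and 5.16, 8.40 and 5.47 CPM in spleen. Its groups were well apart (1.48 ± 0.24, edgeR adjusted p = 0.00034). Cenpi (1.29 ± 0.31) and Cenpl (0.95 ± 0.22), a partner of Cenpn, were also higher in liver, although Cenpi lost its call without spleen 2 (edgeR adjusted p = 0.0751). Cenpw, which pairs with Cenpt in a histone-fold complex, was higher by 1.43 ± 0.38 at levels of 7.09 to 9.63 CPM in liver and 1.79 to 5.16 in spleen. Its call was lost without liver 2, liver 3 or spleen 3, with edgeR adjusted p between 0.0521 and 0.121. Cenpn, which reads the Cenpa nucleosome, was called (0.90 ± 0.29, edgeR adjusted p = 0.0391), but spleen 1 at 11.2 CPM lay above liver 1 at 10.6 CPM. The Cenpn call was lost when any library except spleen 1 was left out, with edgeR adjusted p between 0.0547 and 0.245.

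The network genes that did not pass were not alike. Cenph, which works with Cenpi, Cenpk and Cenpm, was at 10.3, 8.25 and 10.3 CPM in liver and 9.47, 5.31 and 3.33 CPM in spleen, so that spleen 1 alone reached the liver range (0.95 ± 0.34, edgeR adjusted p = 0.068), and without spleen 1 it was called (1.15, edgeR adjusted p = 0.0147). Cenpp and Cenpk lay under 7 CPM in all libraries, with log2 fold changes of 0.71 ± 0.51 and 0.46 ± 0.44. Of the Cenpp exon bases, 27.5% lie opposite exons of Ippk. Cenpt, which links the network to the Ndc80 complex, was well measured, at 38.5, 33.9 and 33.3 CPM in liver and 16.4, 33.8 and 29.9 CPM in spleen. Spleen 2 fell among the liver libraries and spleen 1 far below them (0.27 ± 0.18, edgeR adjusted p = 0.362). Cenpq, of a subcomplex with Cenpo and Cenpp, was at 14.4, 10.8 and 15.003 CPM in liver and 15.5, 11.0 and 16.8 CPM in spleen, with full overlap, and was the only gene of the 37 with a negative estimate (-0.08 ± 0.24, edgeR adjusted p = 0.871). In a wider list of 22 other centromere and kinetochore genes, Cenpc1, which also contacts the Cenpa nucleosome, was at 0.42 ± 0.16 and did not pass, and Cenpo and Mlf1ip, partners of Cenpq, were at 0.09 ± 0.21 and -0.05 ± 0.42. These 3 genes were chosen after their values were seen.

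**Figure D1:**
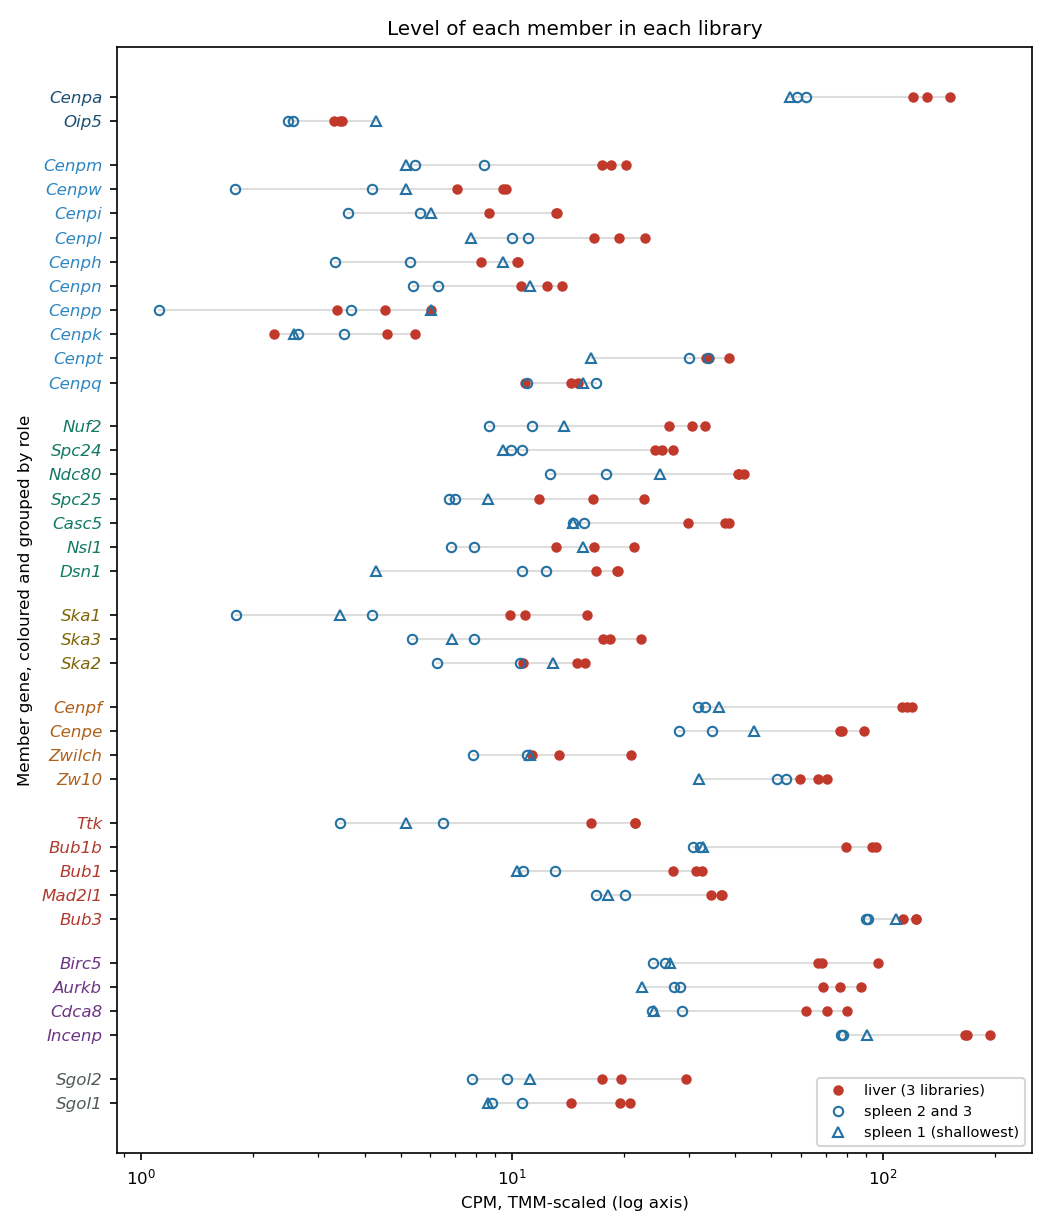
Level of each of the 37 genes in each library, as TMM-scaled CPM on a log axis, grouped and coloured by role. Filled circles are the 3 liver libraries, open circles spleen 2 and spleen 3 and triangles the shallow spleen 1; liver circles lie right of all spleen symbols for 28 genes, while those of Cenpq and Cenpk are interleaved.

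In the outer kinetochore, all 7 of the examined genes from the Knl1, Mis12 and Ndc80 complexes were higher in liver, with log2 fold changes between 0.82 and 1.52. The 4 subunits of the Ndc80 complex, the rod that grips microtubules, had similar values: Nuf2 1.52 ± 0.21, Spc24 1.33 ± 0.19, Ndc80 1.31 ± 0.20 and Spc25 1.26 ± 0.27. Their SE ranges overlapped. Ndc80 itself was at 40.9, 42.1 and 40.7 CPM in liver and 24.96, 12.7 and 17.9 CPM in spleen. The liver libraries agreed closely and the spleen libraries were spread, with spleen 1 the highest of them. Spc24 had narrow groups, at 25.4, 24.3 and 27.1 CPM against 9.47, 10.6 and 9.91 CPM.

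Casc5, also named Knl1, the scaffold on which Bub1 and Bub1b are recruited, was at 29.8, 37.4 and 38.3 CPM in liver and 14.6, 14.6 and 15.6 CPM in spleen (1.23 ± 0.18, edgeR adjusted p = 8.87e-05). Every liver library was well above the narrow spleen range. The Mis12 complex genes had smaller estimates with weaker support. Nsl1 (1.02 ± 0.28, edgeR adjusted p = 0.019) lost its call without liver 2, liver 3, spleen 2 or spleen 3, with edgeR adjusted p between 0.0586 and 0.127. Dsn1 (0.82 ± 0.24, edgeR adjusted p = 0.027) lost it without liver 2, liver 3 or spleen 3, with edgeR adjusted p between 0.0697 and 0.0912. In spleen 1, 5 counts gave Dsn1 4.30 CPM, against 12.3 and 10.6 CPM in the other spleen libraries. The founding subunit of that complex, Mis12, is in the wider list and did not pass (0.22 ± 0.23, edgeR adjusted p = 0.569), while its remaining subunit Pmf1 was higher in liver (0.78 ± 0.17, edgeR adjusted p = 0.00336). Both were chosen after their values were seen.

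The Ska complex follows depolymerizing microtubule ends. Ska1 had the largest log2 fold change of the 37 genes, at 9.86, 10.8 and 15.9 CPM in liver and 3.44, 1.80 and 4.19 CPM in spleen (2.01 ± 0.36, edgeR adjusted p = 0.000673). Even the lowest liver library was above the highest spleen library by a wide margin, though the spleen values rest on 4, 21 and 49 counts, and with all libraries thinned to the depth of spleen 1 the gene did not pass the filter. Ska3 was higher as well (1.54 ± 0.24, edgeR adjusted p = 0.000202). Their partner Ska2 was at 10.7, 14.9 and 15.7 CPM in liver and 12.9, 6.26 and 10.5 CPM in spleen, with overlapping groups (0.62 ± 0.28, edgeR adjusted p = 0.154). Within single libraries, the ratio of Ska1 to Ska2 in CPM per kilobase of exon was 1.05, 0.824 and 1.15 in liver and 0.303, 0.327 and 0.453 in spleen. That ratio did not overlap between tissues, whereas the ratio of Ska3 to Ska2 did. Of the Ska2 exon bases, 10.8% lie opposite exons of Gm11491.

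Of the 4 genes of the fibrous corona, the outermost and transient layer, Cenpf and Cenpe were higher in liver and Zwilch and Zw10 did not pass. Cenpf, a very large coiled-coil protein that accumulates in G2 phase, had the smallest p of the 37 genes. It was at 119, 112 and 116 CPM in liver and 36.1, 33.1 and 31.7 CPM in spleen (1.81 ± 0.12, edgeR adjusted p = 2.35e-08). The spread within each tissue was a small fraction of the distance between them. Cenpe, the kinesin that carries chromosomes to the metaphase plate, was at 76.6, 88.7 and 77.5 CPM in liver and 44.8, 28.2 and 34.5 CPM in spleen (1.27 ± 0.15, edgeR adjusted p = 1.08e-05). Spleen 1 was its highest spleen library.

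Zw10 and Zwilch belong to the RZZ complex, which brings dynein and the Mad proteins to kinetochores. Zw10 also acts in membrane traffic outside mitosis. It was at 66.9, 59.5 and 70.7 CPM in liver and 31.8, 51.8 and 54.7 CPM in spleen (0.42 ± 0.15, edgeR adjusted p = 0.0728). The groups did not overlap, yet liver 2 and spleen 3 were close. Zw10 was called with the sex-linked block (0.45, edgeR adjusted p = 0.0475) and without a filter on low counts (0.43, edgeR adjusted p = 0.0226). Zwilch was at 20.9, 13.4 and 11.3 CPM against 11.2, 11.0 and 7.86 CPM (0.64 ± 0.27, edgeR adjusted p = 0.128), with liver 1 far above the other liver libraries. Kntc1, the remaining RZZ subunit and part of the wider list, was called, with means of 39.8 ± 3.24 and 15.5 ± 2.60 CPM (1.29 ± 0.17, edgeR adjusted p = 3.64e-05). Spdl1, which joins RZZ to dynein, was also higher (1.54 ± 0.31, edgeR adjusted p = 0.00174).

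All 5 spindle checkpoint genes were higher in liver, over a wide range of log2 fold changes, from 0.34 to 1.99. Ttk, the kinase Mps1 that starts checkpoint signalling, was at 16.4, 21.5 and 21.5 CPM in liver and 5.16, 3.43 and 6.496 CPM in spleen (1.99 ± 0.28, edgeR adjusted p = 5.54e-05). Its groups were far apart although the spleen 1 value rests on 6 counts. Bub1b, which encodes BubR1 of the mitotic checkpoint complex, was at 79.4, 93.4 and 95.9 CPM in liver and 32.7, 32.0 and 30.7 CPM in spleen (1.505 ± 0.13, edgeR adjusted p = 3.58e-07). The kinase gene Bub1 had a similar difference (1.37 ± 0.19, edgeR adjusted p = 5.54e-05). Mad2l1, the inhibitor of Cdc20, was at 36.7, 34.3 and 36.6 CPM against 18.1, 16.8 and 20.2 CPM (0.96 ± 0.17, edgeR adjusted p = 0.000493).

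Bub3, the partner that docks Bub1 and BubR1 onto Knl1, differed least of the called genes. It was at 113, 122 and 123 CPM in liver and 108, 89.8 and 91.0 CPM in spleen, so that liver 1 and spleen 1 nearly met (0.34 ± 0.10, edgeR adjusted p = 0.0331). The Bub3 call was lost without any library except spleen 1, with edgeR adjusted p between 0.0506 and 0.207, and with upper-quartile scaling (edgeR adjusted p = 0.0601). Bub3 was thus abundant in both tissues, and the ratio of Bub1b to Bub3 per kilobase was 0.858, 0.932 and 0.952 in the liver libraries against 0.368, 0.436 and 0.412 in the spleen libraries. The ratio of Bub1 to Bub3 was 0.314, 0.347 and 0.333 against 0.125, 0.156 and 0.188. Neither ratio overlapped between tissues. The checkpoint gene Mad1l1 of the wider list was higher by 0.47 ± 0.16 (edgeR adjusted p = 0.0491), and Trip13, the ATPase that remodels Mad2, by 1.05 ± 0.28 (edgeR adjusted p = 0.0153). Both were chosen after their values were seen.

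**Figure D2:**
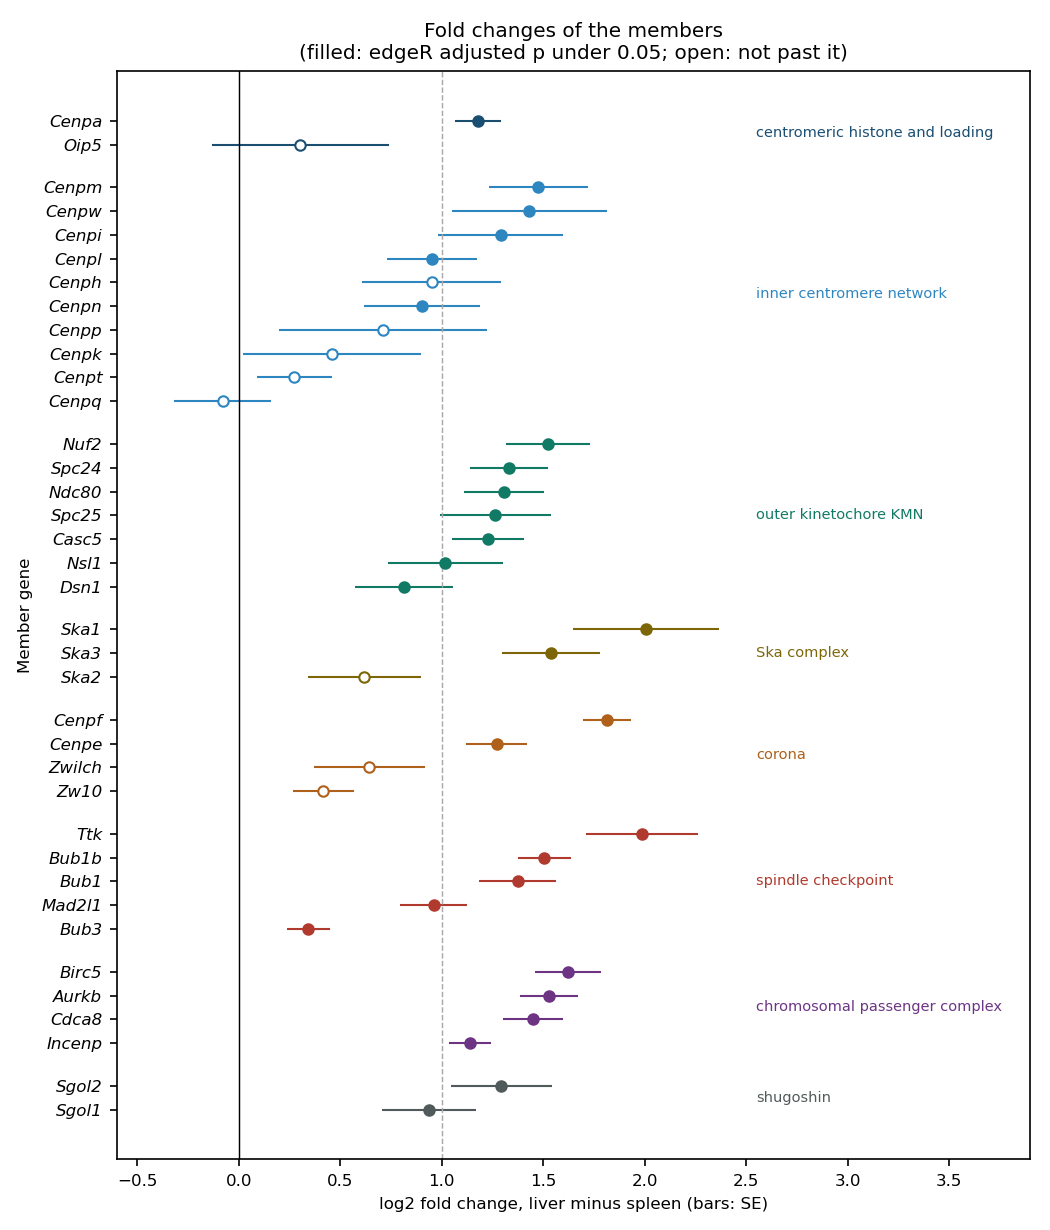
Log2 fold change of each gene, liver minus spleen, with SE bars, grouped by role. Filled symbols passed the edgeR test and open symbols did not. The dashed line marks a difference of 1, which Ska1, Ttk and Cenpf exceed most. Among the genes that do not reach it, Bub3, Zw10, Cenpt, Oip5 and Cenpq fall furthest short.

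All 4 genes of the chromosomal passenger complex, the Aurora B kinase and its targeting subunits, were higher in liver with log2 fold changes between 1.14 and 1.62. Aurkb was at 69.0, 76.4 and 87.4 CPM in liver and 22.4, 27.2 and 28.3 CPM in spleen (1.53 ± 0.14, edgeR adjusted p = 8.57e-07). Birc5, which encodes survivin, was at 66.7, 68.5 and 97.0 CPM against 26.7, 25.8 and 24.0 CPM (1.62 ± 0.16, edgeR adjusted p = 1.72e-06). Liver 3 was its highest library, and the spleen libraries were nearly equal. Cdca8, which encodes borealin, was at 62.0, 70.7 and 79.7 CPM against 24.1, 23.8 and 28.7 CPM (1.45 ± 0.15, edgeR adjusted p = 2.22e-06). The scaffold gene Incenp was the most abundant of the 37 in liver CPM, at 166, 168 and 195 CPM against 90.4, 78.1 and 77.1 CPM, and had the smallest difference of the complex (1.14 ± 0.10, edgeR adjusted p = 7.52e-07). The ratio of Aurkb to Incenp per kilobase was 0.691, 0.754 and 0.746 in liver and 0.411, 0.580 and 0.610 in spleen, again without overlap. Gsg2, the haspin kinase that marks histone H3 for the complex, was higher in liver by 0.82 ± 0.16 (edgeR adjusted p = 0.00179).

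Both shugoshin genes, which protect centromeric cohesin until anaphase, were higher in liver. Sgol1 was at 14.4, 19.5 and 20.8 CPM against 8.61, 8.83 and 10.6 CPM (0.94 ± 0.23, edgeR adjusted p = 0.00821), and its call was lost without spleen 2 (edgeR adjusted p = 0.0641). Sgol2 was at 19.6, 17.5 and 29.4 CPM against 11.2, 7.80 and 9.66 CPM (1.29 ± 0.25, edgeR adjusted p = 0.00118). Liver values stood clear of spleen values for both. Of the 50-base stretches in Sgol2 transcripts, 34.0% also occur in transcripts of its copy Sgo2b or of Kctd18, so its level is uncertain.

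**Figure D3:**
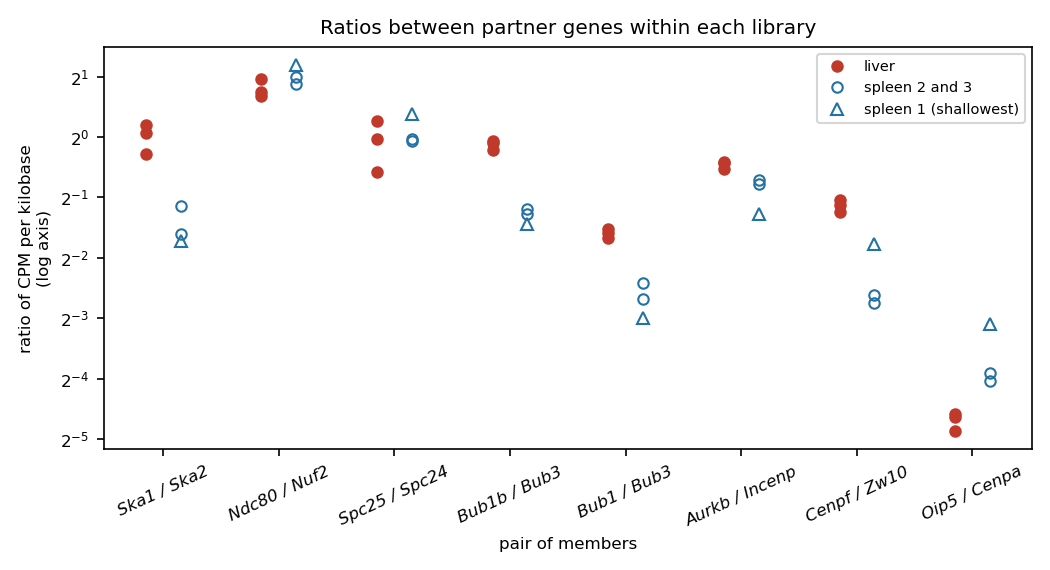
Ratio of CPM per kilobase of exon between 8 pairs of partner genes in each library, on a log axis. Liver (filled) and spleen (open) are apart for Ska1 to Ska2, Bub1b to Bub3, Bub1 to Bub3, Aurkb to Incenp, Cenpf to Zw10 and Oip5 to Cenpa, and interleave for Ndc80 to Nuf2 and Spc25 to Spc24. Of the pairs that are apart, only Oip5 to Cenpa is lower in liver.

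The ratios within libraries do not depend on library scaling, and the pairs were chosen after values were seen, so they carry no test. Of 11 pairs computed, 6 did not overlap between tissues, and no share over other gene pairs was computed to set beside this. Among the 6, only Oip5 to Cenpa was lower in liver, at means of 0.0387 and 0.0814 in liver and spleen. Its spleen 1 value rests on 5 counts of Oip5. Ndc80 to Nuf2 gave 1.94, 1.601 and 1.68 in liver and 2.28, 1.84 and 1.998 in spleen, and Spc25 to Spc24 gave 0.669, 0.978 and 1.20 against 1.31, 0.952 and 0.980. Both ratios thus overlapped between tissues, that of Ndc80 to Nuf2 only through liver 1. No ratio of Ndc80 or Nuf2 to Spc24 or Spc25 was computed. Cenpf to Zw10 gave 0.459, 0.486 and 0.422 in liver and 0.292, 0.164 and 0.149 in spleen. Exon lengths came from GENCODE M21 and not from the annotation used for counting, which affects the level of a ratio and not its difference between tissues. Per kilobase, Cenpa was the highest of the 37 genes in both tissues at means of 81.9 and 35.8 CPM per kilobase, followed by Incenp at 54.3 and 25.2. In liver the order continued with Aurkb at 39.7 and Cdca8 at 37.8, and in spleen with Bub3 at 21.5 and Zw10 at 16.1.

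How far a gene differed was only loosely related to how abundant it was. Across the 37 genes, which share the same 6 libraries, log2 mean CPM and log2 fold change had a Pearson's r of 0.18 and a Spearman's rho of 0.16. The 28 called genes had mean levels between 6.22 and 129 CPM and the 9 others between 3.26 and 55.9 CPM. SE was between 0.10 and 0.38 for the former and between 0.15 and 0.51 for the latter.

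The wider machinery around these genes had smaller medians. In the wider list of 22 centromere and kinetochore genes, 8 passed the test, all higher in liver, and 14 did not, with a median of 0.42, and without spleen 3 the count was 5. Among 20 genes of checkpoint output and the anaphase-promoting complex, 6 passed, all higher in liver (median 0.17). Of the 20, 13 had positive estimates. For 6 the liver libraries lay above every spleen library and for 3 below, the latter as for 1784 of the 11716 genes tested. The called genes included the activator Cdc20 (1.22 ± 0.14), the ubiquitin-conjugating enzyme Ube2c (1.62 ± 0.14), the inhibitor Fbxo5 (0.88 ± 0.16) and separase, Espl1 (1.47 ± 0.14). Among 13 cohesin genes, 4 passed, all higher in liver (median 0.06), and 2 by the DESeq2 Wald test. The called ones were Rad21 (0.67 ± 0.09), Smc3 (0.30 ± 0.09), Cdca5 (1.38 ± 0.25), which encodes sororin, and the acetyltransferase gene Esco2 (1.38 ± 0.30).

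Among 3 further lists, the genes named are those with the smallest p. Of 13 mitotic kinesins, 12 were higher in liver (median 1.35), led by Kif11 (1.59 ± 0.11), Kif22 (1.58 ± 0.14), Kif23 (1.51 ± 0.16) and Kif4 (1.35 ± 0.15). Of 33 genes of mitotic kinases, condensin and cytokinesis, 30 were higher (median 1.40), led by Mki67 (1.37 ± 0.10), Racgap1 (1.40 ± 0.10), Tpx2 (1.78 ± 0.13) and Aspm (1.66 ± 0.12). Of 41 DNA replication genes, 19 were higher (median 0.44), led by Lig1 (0.78 ± 0.10), Rrm2 (0.93 ± 0.13), Gmnn (0.89 ± 0.18) and Uhrf1 (0.60 ± 0.12), and the count was 11 without spleen 2. In these 3 lists 0 genes were lower in liver. No test compared the lists with each other.

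**Figure D4:**
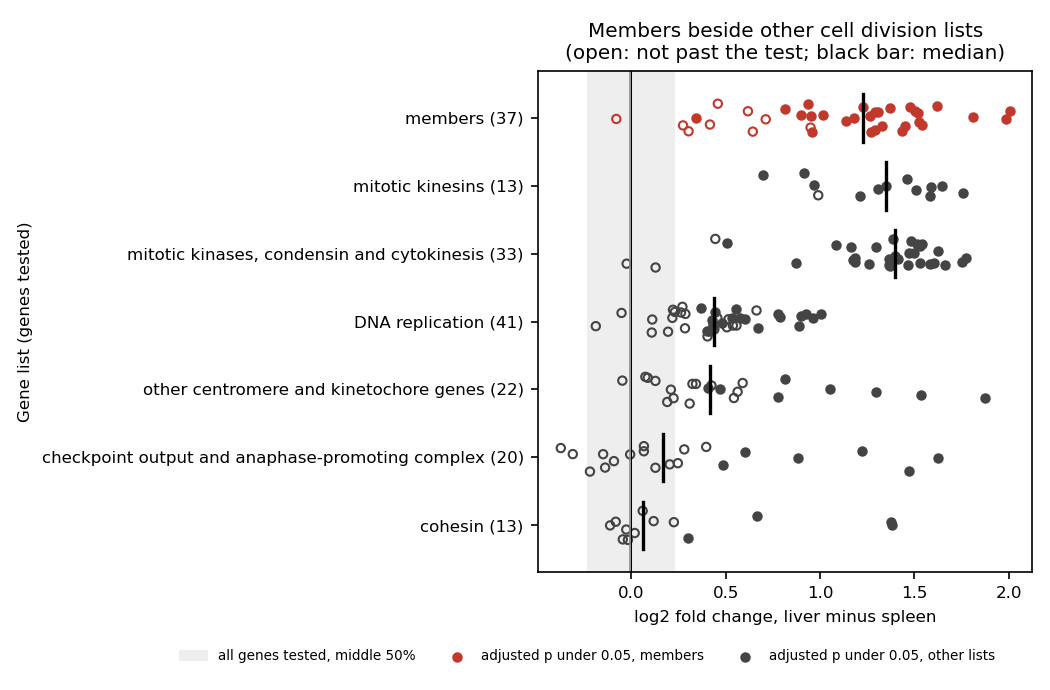
Log2 fold change of every tested gene in the 37-gene group (red) and in 6 related lists (dark), with the median of each as a black bar. Grey marks the middle 50% of all genes tested; the kinetochore group has its median at 1.23, near the mitotic lists at 1.35 and 1.40 and right of DNA replication at 0.44.

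Within each library the kinetochore genes were compared with the replication genes of the same library. The median log2 CPM of the 37 genes minus that of the 41 replication genes was -1.43, -1.28 and -1.14 in liver against -1.83, -1.83 and -1.72 in spleen. The groups did not overlap, with means of -1.28 ± 0.14 and -1.79 ± 0.06 (SD, n = 3), so the kinetochore genes stood higher relative to replication genes in each liver library. Relative to the 13 kinesins the same quantity was -1.36, -1.41 and -1.22 in liver and -0.75, -1.12 and -1.12 in spleen. Against the 33 genes of mitotic kinases, condensin and cytokinesis it was -1.62, -1.76 and -1.60 against -1.37, -1.12 and -1.39. In both of these comparisons the liver values were the lower ones without overlap, and none of the 3 was tested. These are differences between list medians of level, and the gene at a median can change between libraries. Gene by gene the lists lay nearer each other. Median log2 fold changes were 1.23 for the 37 genes, 1.35 for the kinesins and 1.40 for mitotic kinases, condensin and cytokinesis.

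**Figure D5:**
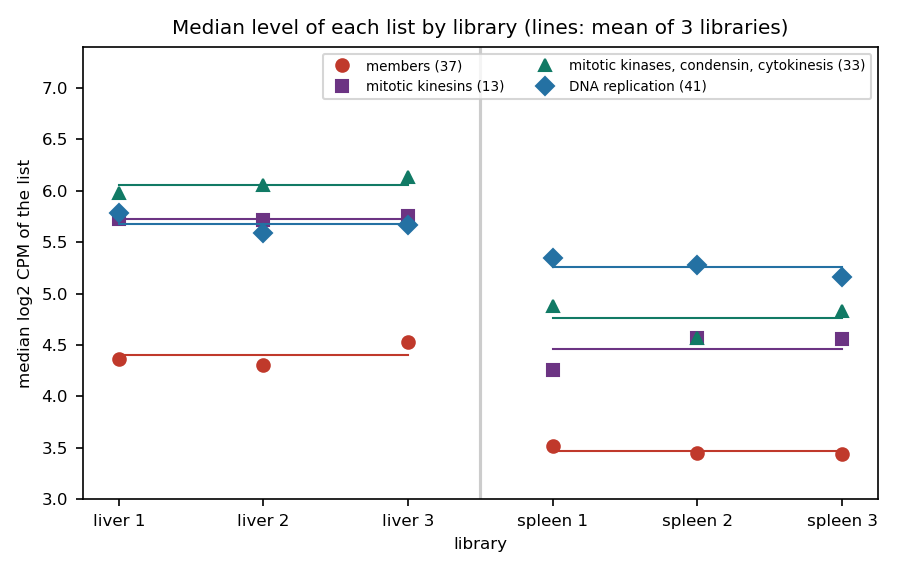
Median log2 CPM of the 37 kinetochore genes and of 3 related lists in each library, with lines at the mean of each tissue. The kinetochore medians average 4.40 in liver and 3.47 in spleen, and the replication medians 5.68 and 5.26.

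Markers of other cell types moved with tissue and are given for comparison. Of 9 tested NK and CD8 T cell markers, 5 were higher in liver and 1 lower; their summed level was 101 to 130 CPM in liver and 46.1 to 55.9 CPM in spleen, with Nkg7 at 63.1 and 23.8 CPM and Prf1 at 14.3 and 4.08 CPM. The NK receptor gene Ncr1 had means of 1.42 and 0.0286 CPM in liver and spleen, and the CD8 chain gene Cd8a 4.47 and 3.34 CPM. Lower means in liver were found for the other CD8 chain gene, Cd8b1, at 7.17 and 7.66 CPM, and for Eomes, at 0.825 and 9.63 CPM. These genes were named after their values were seen. Erythroid markers went the other way, and liver had the lower level for 10 of 10, among them Beta-s (-3.81 ± 0.25) and Gata1 (-1.40 ± 0.16). The erythroid sums were 26.3 to 34.0 CPM in liver against 240.2 to 339 CPM in spleen. The globin symbols Hba-a1, Hba-a2, Hbb-b1 and Hbb-b2 were listed at 0 in every library. Granulocyte markers were lower in liver in 9 of 11 cases and higher in 1 (296 to 333 against 506 to 847 CPM; Ngp -1.26 ± 0.15, Ltf -1.02 ± 0.14). Macrophage markers were lower in 7 of 8 (73.4 to 82.7 against 130 to 199.6 CPM; Lyz2 -0.59 ± 0.15, while Cd68 at -0.50 ± 0.29 did not pass), and B cell markers in 4 of 9 (137 to 167 against 223 to 311 CPM; Cd79a -0.69 ± 0.16, while Cd79b at -0.37 ± 0.16 did not pass). The B cell markers did not all move 1 way: 3 of the 9 had positive estimates, although 0 were called higher in liver. They were Igll1, at means of 4.07 and 1.46 CPM in liver and spleen, Vpreb3 at 6.71 and 5.18 CPM and Ebf1 at 5.34 and 3.83 CPM. These were named after their values were seen. Hepatocyte sums were 13.8 to 19.4 against 17.5 to 24.96 CPM. Trf was lower in liver (-0.71 ± 0.23), and Alb was at 5.18 CPM in liver and 0 counts in spleen. Endothelial sums were 184 to 225 against 238 to 260 CPM, nearly all from Pecam1 (-0.19 ± 0.10, not passed), with Stab2 lower in liver (-4.91 ± 0.53) and Lyve1 listed at 0 in every library. With the markers of all these cell types removed before scaling, 28 of the 37 kinetochore genes were higher in liver and the median was 1.23. That removal changes the scaling alone and leaves any kinetochore reads of other cells in place; the part of other cells in the result was not tested.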

How the data were processed

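RNA-seq libraries of liver and spleen Treg cells (3 each) were grouped by the tissue in the labels, and replicate numbers follow accession order; the labels pair no libraries. The authors deposited raw read counts per gene symbol, made with HISAT2 2.1, HTSeq 0.11 and mm9 per the submitters' processing notes; for the annotation, strand setting and filters nothing is stated in the sources used here. The table's 5 HTSeq summary rows, 25.5% to 29.0% of a library's counts, were left out. Counts were filtered (filterByExpr, 11716 genes), TMM-scaled and tested in R 4.3.3 with edgeR 4.0.16 quasi-likelihood F tests (liver against spleen), with Benjamini-Hochberg adjustment over every gene tested; SE is implied by F. CPM floors cover counting error only. List medians by library used log2 CPM with a prior count of 2. Methods were tested on simulated counts. The genes, lists and tests were chosen with earlier results of these data known. Named genes are all 37, Foxp3, Cd4, Il2ra and Ctla4, the 4 smallest p of each related list and the 2 most abundant tested markers of each cell type; others are stated. A gene that the rule names and a sequence are not reported here. Exon lengths and overlaps came from GENCODE M21 (GRCm38), promoters from RefSeq GRCm38.p6; older symbols (Casc5, Sgol1, Sgol2) were matched through RefSeq synonyms. Alternatives used DESeq2 1.42.0 and limma 3.58.1 among others.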

Additional observations from a re-analysis of the deposited data

How the results depend on the processing

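Alternatives were DESeq2 size factors, upper-quartile scaling, the DESeq2 Wald test, limma-voom with quality weights, no filter, 5 CPM in at least 3 libraries, markers removed before scaling, thinning to equal depth, leaving out each library and, added after seeing the data, a block on sex-linked transcripts and leaving out both libraries numbered 1. The count of kinetochore genes higher in liver was 19 (thinned, 31 genes passing the filter) to 31 (limma-voom), with 0 lower in each; with a library left out it was 23 to 29 and the median 1.07 to 1.31, and without both libraries numbered 1 the median was 1.33. Of 28 called genes, 18 were called under every alternative in which they passed the filter, and 4 of the 9 others under at least 1. Thinning ended the calls of Casc5 (0.76, edgeR adjusted p = 0.103), Spc25 (1.06, 0.140), Sgol1 (0.77, 0.196), Sgol2 (0.83, 0.169), Nsl1 (0.44, 0.507), Bub3 (0.25, 0.316) and Cenpn (0.23, 0.817), as log2 fold change and edgeR adjusted p, left Cenph, Cenpk, Cenpp, Cenpw, Oip5 and Ska1 untested, and raised Cenpl to 1.53 and Dsn1 to 1.46; Cenpn also missed by the DESeq2 Wald test (adjusted p = 0.0655) and with the block (edgeR adjusted p = 0.0512). Cenpq turned positive when thinned (0.037), without liver 2 (0.06) and without spleen 3 (0.13), with a range of -0.29 to 0.13 when a library was left out, and passed under none of the 16 alternatives. Of all genes, 658 were higher and 463 lower when thinned, 1521 and 1243 by limma-voom, 954 and 1014 with upper-quartile scaling, and 722 to 1245 and 486 to 989 with a library left out, lowest without spleen 2. Genes higher when thinned were 10 for DNA replication and 4 for the other centromere list; with a library left out these counts were 11 to 25 and 5 to 8. Cohesin had 2 higher by DESeq2. The labels give no replicate numbers, so no replicate block came from them; the block on sex-linked transcripts pairs same-numbered libraries, and among the kinetochore genes it changed the calls of Cenpn and Zw10 (edgeR adjusted p = 0.0475). Depth limits spleen 1 most.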
